A study of Mus musculus with 4 samples.

Results

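Lysosomal genes and the subunits of the vacuolar ATPase (V-ATPase) were examined in the cortex of APPswe/PS1ΔE9 mice, a transgenic model of Alzheimer's disease. The members were 27 listed lysosomal genes (15 hydrolases, 3 soluble cofactors, 8 membrane proteins and the transcription factor Tfeb) and every gene whose symbol begins with Atp6v0 or Atp6v1, which gave 8 subunits of the V0 sector and 10 of the V1 sector. All 45 were counted, among 18386 features in all, and each had at least 10 counts in every library. RNA came from 2 male APP/PS1 transgenic mice (APP) and 2 male wild type mice (WT), all 12 months old and on a C57BL/6 background, with anesthesia before dissection as the only treatment in the labels. The transgenes of this line are driven by the mouse prion promoter, so their expression does not follow that of the endogenous genes. The labels do not say whether the animals were littermates.

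The lysosome digests material that reaches it by endocytosis, phagocytosis and autophagy. Its hydrolases work at acidic pH, and the acid is supplied by the V-ATPase, in which the cytosolic V1 sector splits ATP and the membrane-embedded V0 sector carries protons across the membrane. Heavily glycosylated membrane proteins line the organelle. TFEB, a basic helix-loop-helix factor, binds the E-box CACGTG and in particular the longer palindrome TCACGTGA found in promoters of many lysosomal genes. In brain, microglia take up debris and are rich in lysosomal enzymes, whereas neurons also use the V-ATPase to fill synaptic vesicles with transmitter.

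Because Tfeb was itself a member, the promoters were read for both E-box forms. A window from 250 bases before to 50 bases after the transcription start was held by RefSeq (GRCm38.p6) for 38 of the 45 members and for 27025 genes in all. CACGTG was present in 11 of the 38 members (28.9%) against 8.09% of all genes, counting a gene once if any of its windows held it. TCACGTGA, which contains CACGTG, was present in 5 members (13.2%) against 1.12%, namely Atp6v0d1, Atp6v0e, Atp6v1a, Cln3 and Mcoln1. Both motifs read the same on either strand. The windows below, 150 bases before the start and 10 from it on, show a membrane protein with several E-boxes, a pump subunit and an ion channel with the long form, and β-glucuronidase, which rose most among the members and has neither. Capitals mark CACGTG in Lamp1 and TCACGTGA in Atp6v0d1 and Mcoln1, and all are written 5′ to 3′ along the gene.
Lamp1 (chr8:13159011-13159170, plus strand): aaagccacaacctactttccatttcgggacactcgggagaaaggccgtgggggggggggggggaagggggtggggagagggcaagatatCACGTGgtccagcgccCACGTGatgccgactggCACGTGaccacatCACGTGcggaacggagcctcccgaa
Atp6v0d1 (chr8:105566055-105566214, minus strand): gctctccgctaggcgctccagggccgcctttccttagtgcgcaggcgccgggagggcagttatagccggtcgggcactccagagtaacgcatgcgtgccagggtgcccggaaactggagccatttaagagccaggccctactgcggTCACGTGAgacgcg
Mcoln1 (chr8:3500369-3500528, plus strand): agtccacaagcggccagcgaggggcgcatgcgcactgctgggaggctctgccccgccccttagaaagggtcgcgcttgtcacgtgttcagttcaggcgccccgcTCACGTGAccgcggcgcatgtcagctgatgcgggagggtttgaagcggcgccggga
Gusb (chr5:130003040-130003199, minus strand): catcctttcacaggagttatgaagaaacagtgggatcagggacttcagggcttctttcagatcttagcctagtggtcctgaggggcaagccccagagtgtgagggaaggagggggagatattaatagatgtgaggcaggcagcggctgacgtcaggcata

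In Lamp1 the 4 E-boxes begin 61, 45, 28 and 15 bases before the start, and in Mcoln1 a further short E-box, not in capitals, begins 71 bases before it. None of the 6 members that passed the test of APP against WT described next held either motif in its window. At the shares of all genes, 8.09% for CACGTG and 1.12% for TCACGTGA, 0 of 6 is not unusual. The median log2 fold change of the 11 members with CACGTG was 0.10, and 7 of them were above 0. It was 0.06 for the 27 members with a window but no CACGTG, of which 16 were above 0. A match of letters does not show a binding site, and its absence from this window says nothing about other regions.

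The libraries held between 28525117 and 43881196 counts, both APP libraries being smaller than both WT libraries. Values below are counts scaled to a fixed total per library (CPM) on library sizes scaled by the trimmed mean of M values, and log2 fold changes are APP over WT with their standard errors (SE). The adjusted p-values were those of the quasi-likelihood test in edgeR, corrected by Benjamini-Hochberg over the 18386 features, and a gene was called at an adjusted p (FDR) under 0.05. As a check of the genotype labels, App was at 2679 and 2388 CPM in APP against 857 and 905 CPM in WT, and Prnp, whose promoter region the transgenes carry, was at 1856 and 1622 CPM against 527 and 535 CPM. With 2 mice in each group no exact permutation test of a single gene can give a two-sided p under 0.333, so each call rests on the spread shared across genes. In bulk tissue, fewer cells of a type and less RNA per cell cannot be told apart.

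In APP cortex 6 lysosomal genes were called higher, and none of the 18 V-ATPase subunits among the members was called. The 6 were the hydrolases Gusb, Man2b1 and Hexa, the soluble cofactors Grn and Npc2, and the membrane protein Laptm5. Their increases ran from 50.4% (Npc2) to 120% (Gusb). The 6 called members were 13.3% of the 45, against 1.14% of all features tested, and all of them were also past the study's further cut-off of a 1.5-fold change, which 0.881% of features were (0.843% as increases). Increases alone were called in 1.02% of features. No member was called lower, against 0.120% of all features. Both APP libraries lay above both WT libraries in 23 of the 45 members and below them in 9, and 13 members overlapped, while over all features 21.3% lay above and 21.4% below (42.7% together).

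**Figure D1:**
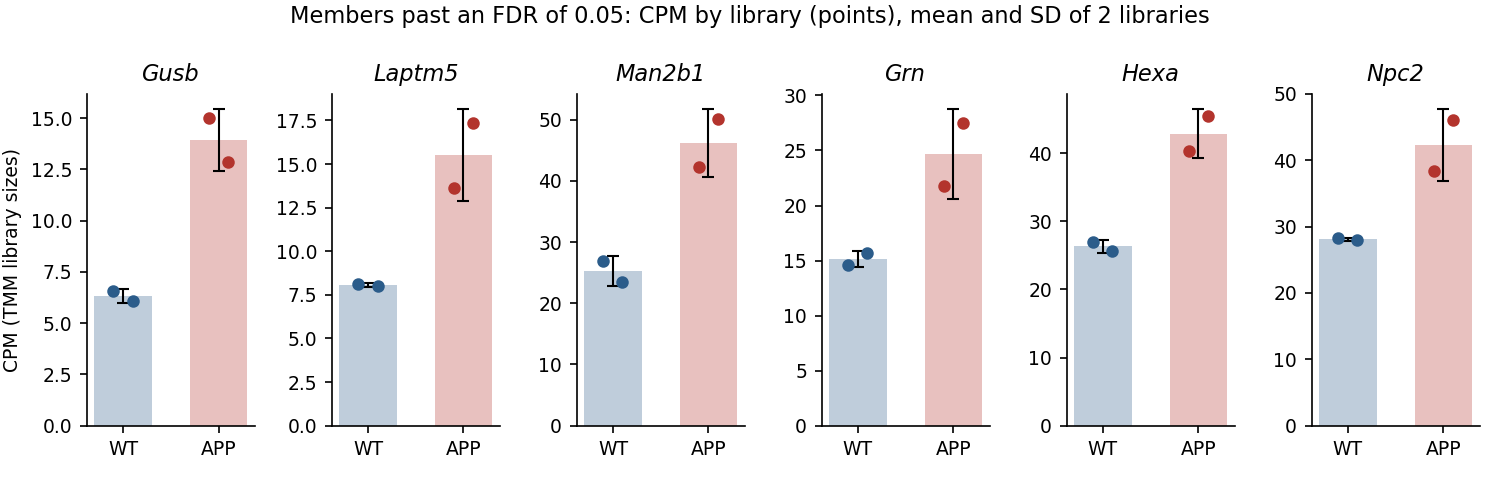
CPM of the 6 members past an FDR of 0.05 in each library (points), with the mean (bar) and SD (error bar) of the 2 libraries of WT and APP, each panel on its own axis from 0. In every panel both APP libraries lie above both WT libraries, and only in Gusb is the first APP library, APP.3, the higher of the pair.

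Among the hydrolases, Gusb (β-glucuronidase, chromosome 5, 129989011 to 130003049, GRCm38), which removes glucuronic acid from glycosaminoglycans, was at 14.99 and 12.85 CPM in APP and 6.55 and 6.09 CPM in WT. Its log2 fold change was 1.14 (SE 0.13, adjusted p = 0.00646). Both APP values were above both WT values by a gap wider than that within either pair. Most of its reads lay on the full-length coding transcript, with 391 and 358 counts in APP and 245 and 194 in the deeper WT libraries.

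Man2b1, the lysosomal α-mannosidase (chromosome 8, 85083270 to 85098282), which trims mannose from glycoproteins, was at 42.2 and 50.1 CPM in APP and 27.0 and 23.5 CPM in WT. The difference was 0.87 on the log2 scale (SE 0.10, adjusted p = 0.00755). Hexa, the α subunit of β-hexosaminidase, which removes a terminal sugar from GM2 ganglioside (chromosome 9, 59539540 to 59565109), was at 40.3 and 45.4 CPM against 27.0 and 25.6 CPM, a log2 fold change of 0.70 (SE 0.08, adjusted p = 0.00755). Neither gene overlapped between the groups. An exon of Hexa overlaps one of Tmem202 on the other strand, and whether the authors used the strand of the reads in counting is not stated.

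The other 12 hydrolases did not pass the test. The nearest were Lgmn, Naglu and Tpp1. Lgmn, legumain, an asparagine-specific protease and the most abundant hydrolase per kilobase of transcript over all 4 libraries, though in WT alone Gaa and Ppt1 were above it, was at 79.6 and 83.1 CPM in APP and 65.0 and 65.6 CPM in WT (log2 fold change 0.32, SE 0.07, adjusted p = 0.0655). Per kilobase its level was 40.0 and 41.8 CPM against 32.7 and 33.0 CPM. The APP libraries stood above the WT libraries by more than the spread of either pair, yet the gene stayed above the threshold after adjustment.

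Naglu, which breaks down heparan sulfate, was at 4.52 and 4.26 CPM in APP against 2.16 and 2.82 CPM in WT (log2 fold change 0.82, SE 0.19, adjusted p = 0.107). Its fold exceeded that of Hexa but rested on fewer reads. Tpp1, a peptidase that takes tripeptides from the ends of proteins, was at 23.0 and 24.6 CPM against 19.4 and 19.4 CPM (log2 fold change 0.30, SE 0.08, adjusted p = 0.171). Idua, which removes iduronic acid from heparan and dermatan sulfate, was at 6.10 and 5.72 CPM against 3.60 and 4.80 CPM, with an adjusted p of 0.298. In these 3 genes as well the groups did not overlap.

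Another 5 hydrolases had small differences, between 0.08 and 0.13 on the log2 scale, with both APP libraries above both WT libraries. They were Ppt1 (removal of palmitate from proteins), Gaa (glycogen), Asah1 (ceramide), Arsb (sulfated glycosaminoglycans) and Galc (myelin galactolipids), and their adjusted p-values were 0.640 or higher. The smallest separation was in Arsb, where the lower APP library was at 34.09 CPM and the higher WT library at 33.98 CPM. The last 3, Manba (β-mannosidase), Glb1 (β-galactosidase) and Neu1 (sialidase), overlapped between the groups at log2 fold changes of 0.02, -0.02 and -0.06. Glb1 shares an identical stretch of 165 bases with Tmppe, a counted gene that overlaps it on the same strand, so its counts are uncertain. The 3 called hydrolases are all glycosidases, but the glycosidases that were not called differed among themselves. Naglu and Idua had 95% intervals above 0, of 0.38 to 1.26 and 0.09 to 0.91. Manba and Glb1 had intervals of -0.22 to 0.25 and -0.24 to 0.19, which exclude a 1.5-fold rise, as did those of Gaa, Galc and Neu1.

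Of the 3 soluble cofactors, 2 rose. Npc2, which binds cholesterol in the lysosomal lumen and hands it on to NPC1 (chromosome 12, 84754562 to 84773152), was at 38.4 and 46.1 CPM in APP and 28.3 and 27.9 CPM in WT (log2 fold change 0.59, SE 0.10, adjusted p = 0.0276). Grn, progranulin, which is cut into granulins in the lysosome (chromosome 11, 102430315 to 102437048), was at 21.8 and 27.5 CPM against 14.6 and 15.7 CPM (log2 fold change 0.71, SE 0.12, adjusted p = 0.0313). The APP libraries differed from each other more than the WT libraries did in both genes. Without WT.1 the adjusted p of Grn was 0.059, and without WT.2 that of Npc2 was 0.0724.

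Psap, prosaposin, the precursor of the saposins that present sphingolipids to their hydrolases, did not move with them. It was the most abundant member, at 882 and 856 CPM in APP and 864 and 890 CPM in WT, or 333 and 323 CPM per kilobase against 326 and 335. Its log2 fold change was -0.01, with a 95% interval from -0.15 to 0.12. Exons of Grn overlap those of Fam171a2 on the other strand, with the same limit as in Hexa.

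In the membrane of the lysosome, 1 of 8 proteins passed the test. Laptm5, a membrane protein of blood-derived and microglial cells that directs receptors to the lysosome (chromosome 4, 130913125 to 130936141), was at 13.7 and 17.4 CPM in APP and 8.12 and 7.98 CPM in WT (log2 fold change 0.95, SE 0.14, adjusted p = 0.0173). Laptm4a, of the same family, was at 102 and 102 CPM against 98.3 and 97.7 CPM (log2 fold change 0.06, adjusted p = 0.785). The levels of both genes were tight within the WT pair, and only Laptm5 was called. Laptm4b, of the same family but not among the members, had a log2 fold change of -0.09 (adjusted p = 0.701).

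The major glycoproteins were higher by smaller amounts. Lamp1, the most abundant membrane member per kilobase, was at 177 and 181 CPM in APP and 155 and 158 CPM in WT (log2 fold change 0.19, SE 0.06, adjusted p = 0.237). Its level was 79.4 and 81.1 CPM per kilobase against 69.7 and 70.8 CPM. Lamp2, needed for fusion with autophagosomes and for chaperone-mediated autophagy, was at 116 and 116 CPM against 91.7 and 97.6 CPM (log2 fold change 0.29, SE 0.06, adjusted p = 0.0874). Neither overlapped between groups, and neither was called.

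The 3 spliced coding forms of Lamp2 counted had similar differences, at log2 fold changes of 0.28, 0.31 and 0.19, and none was called when transcripts were tested in place of genes. A noncoding transcript of the locus, Lamp2-205, was called in that fit, with 106 and 109 counts in APP and 86 and 69 in the deeper WT libraries (log2 fold change 0.88, adjusted p = 0.0389). Scarb2, the receptor that carries β-glucocerebrosidase to the lysosome, Npc1, the cholesterol transporter, and Cln3 had log2 fold changes of 0.16, 0.31 and 0.35 with adjusted p-values of 0.335, 0.195 and 0.433. A stretch of 116 bases of Scarb2 is 91.4% identical to Lix1, a counted gene, and exons of Lamp1, Npc1 and Cln3 overlap counted genes on the other strand. Mcoln1, a lysosomal calcium channel, was the only membrane member below 0, at 24.0 and 20.9 CPM in APP and 25.2 and 25.4 CPM in WT (log2 fold change -0.18, SE 0.09, adjusted p = 0.495).

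Tfeb, the transcription factor of lysosome biogenesis (chromosome 17, 47737030 to 47792419), was scarce and was not called. Its level was 1.41 and 1.52 CPM in APP and 1.84 and 2.23 CPM in WT, from 41 to 81 counts in a library. The log2 fold change was -0.47 (SE 0.24, adjusted p = 0.495), with a 95% interval from -1.02 to 0.08. Both APP values were below both WT values, with an interval that still includes no difference.

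**Figure D2:**
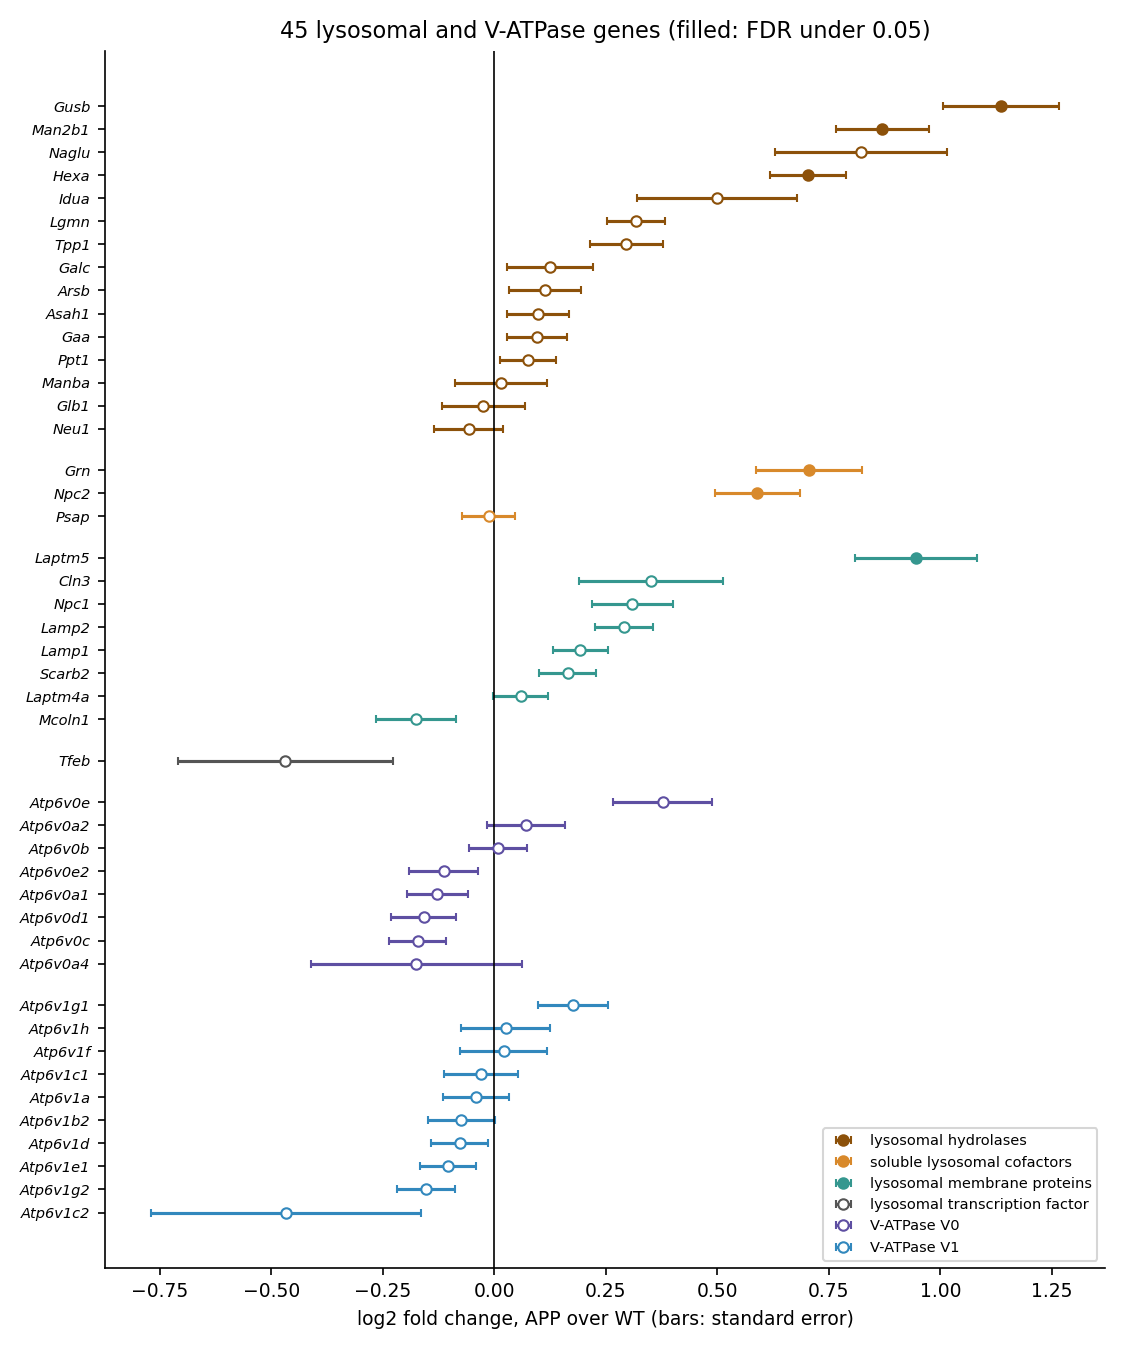
Log2 fold change of APP over WT (x axis) of each of the 45 members (y axis), by role, with bars of 1 standard error; filled points have an FDR under 0.05. The filled points are 3 hydrolases, 2 soluble cofactors and Laptm5, between 0.59 and 1.14, while the 18 V-ATPase subunits lie between -0.47 and 0.38 and none is filled.

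None of the 18 V-ATPase subunits among the members was called, against 1.14% of all features, a share at which 0 of 18 is not unusual. Log2 fold changes were below 0 in 12 of the 18, against 9241 of the 18386 features. At an unadjusted p under 0.05 there were 1 higher (Atp6v0e) and 2 lower (Atp6v0c and Atp6v1g2), against 7.36% and 4.78% of all features in the same directions. The likelihood ratio and exact tests of edgeR and DESeq2 also called 0 of the 18. In 2 subunits (11.1%) both APP libraries lay above both WT libraries and in 7 (38.9%) below them, against 21.3% and 21.4% of all features. For 15 of the 18 subunits the 95% interval of the fold lay within 1.5-fold either way (0.585 on the log2 scale). The other 3 subunits were Atp6v0a4 and Atp6v1c2, which had few reads, and Atp6v0e. Hydrolases and membrane proteins that were not called also had intervals within that range, among them Lgmn (0.17 to 0.47) and Lamp1 (0.05 to 0.33). Such intervals therefore do not set the pump apart from them.

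The abundance of the subunits was uneven. Per kilobase in WT, the highest were subunits that the assembled V1 sector holds in several copies, Atp6v1e1 (E, a peripheral stalk) at 182 and 187 CPM, Atp6v1b2 (B) at 166 and 167 CPM and Atp6v1a (A, which with B forms the ATP-splitting ring) at 153 and 158 CPM. In V0 the highest was Atp6v0c (the c subunit of the proton-carrying ring) at 144 and 142 CPM. The lowest were Atp6v0a4 and Atp6v1c2, isoforms best known from epithelia such as kidney, with means of 0.588 and 0.748 CPM per kilobase. The V-ATPase median in WT was 64.9 CPM per kilobase, against 6.60 CPM for the hydrolases and 13.9 CPM for the membrane proteins.

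**Figure D3:**
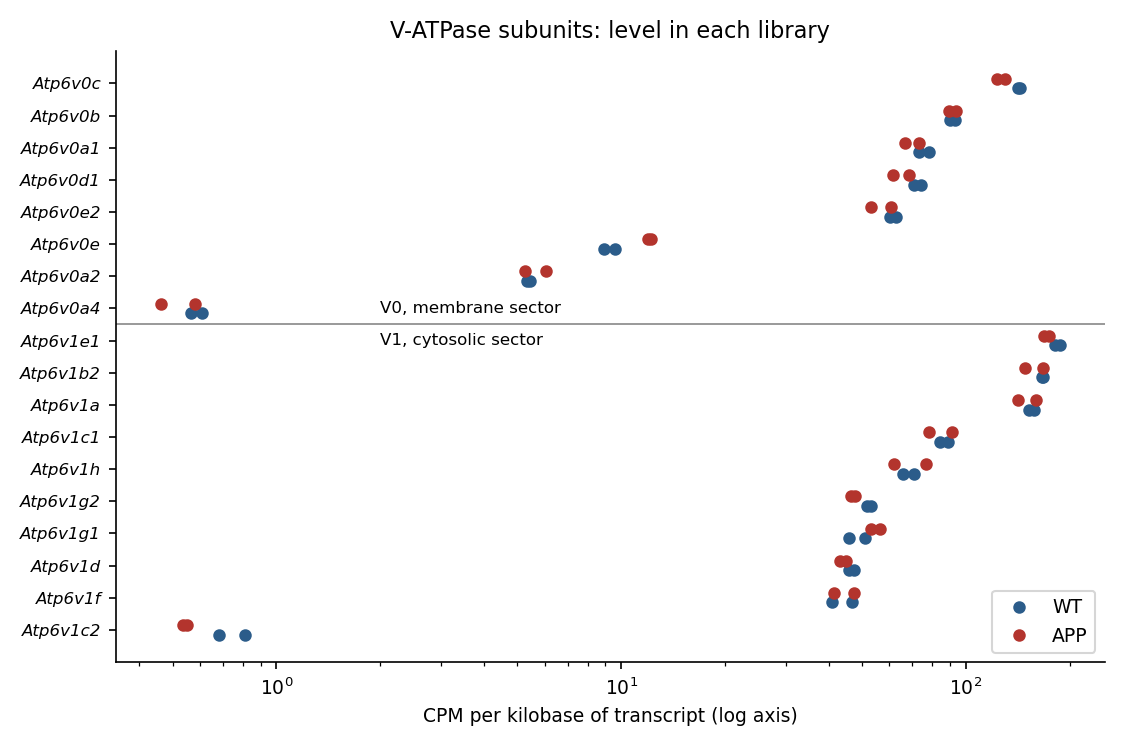
Level of each V-ATPase subunit in each library, in CPM per kilobase of transcript on a log axis, with V0 above the line and V1 below it (blue, WT; red, APP). Most subunits lie between 40 and 190, Atp6v0c and Atp6v0d1 have both APP points to the left of WT, and Atp6v0e has both to the right.

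Among the 8 V0 members, Atp6v0e, a small subunit of uncertain function in the pump, had the largest difference. It was 1 of 3 V0 subunits above 0. It was at 13.8 and 15.6 CPM in APP and 10.97 and 11.71 CPM in WT (log2 fold change 0.38, SE 0.11, adjusted p = 0.202). Atp6v0c (chromosome 17, 24163866 to 24169702) was at 154 and 146 CPM against 171 and 168 CPM (log2 fold change -0.17, SE 0.06, adjusted p = 0.314). Atp6v0d1, which couples the ring to V1, and Atp6v0a1, the neuronal form of the proton-channel subunit, were likewise lower in both APP libraries, at log2 fold changes of -0.16 and -0.13 with adjusted p-values of 0.433 and 0.511.

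The other 4 V0 subunits overlapped between groups, with log2 fold changes from -0.17 in Atp6v0a4 to 0.07 in Atp6v0a2. Atp6v0e2 was at -0.11 and Atp6v0b, the c″ subunit, at 0.01. Part of Atp6v0a4 is shared with D630045J12Rik on the same strand, so its counts are uncertain. The summed CPM of the 8 V0 subunits was 754 and 745 in APP and 808 and 808 in WT. These sums leave out Tcirg1, the a3 form of the proton-channel subunit, whose symbol does not begin with Atp6v0. Its log2 fold change was 0.70 (SE 0.14, adjusted p = 0.0593), larger than that of Atp6v0e.

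Within V1, Atp6v1e1 was at 229 and 221 CPM in APP and 239 and 246 CPM in WT (log2 fold change -0.10, SE 0.06, adjusted p = 0.573). The largest difference was in the rarest subunit, Atp6v1c2, at 0.862 and 0.839 CPM against 1.27 and 1.07 CPM (log2 fold change -0.47, SE 0.30, adjusted p = 0.604), from 25 to 56 counts in a library. Atp6v1g2 (-0.15) and Atp6v1d (-0.08) were also lower in both APP libraries and Atp6v1g1 (0.18) higher, none of them called. The remaining 5, Atp6v1a, Atp6v1b2, Atp6v1c1, Atp6v1f and Atp6v1h, overlapped between the groups within -0.07 to 0.03. Summed over V1, CPM was 1985 and 1793 in APP and 1923 and 1991 in WT, and APP.3 lay within the range of WT while APP.4 lay below it.

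Set beside each other, the hydrolases and the pump had medians of 0.13 and -0.08 on the log2 scale, and the median of all features was -0.001. The hydrolases were above 0 in 13 of 15 genes and the membrane proteins in 7 of 8, with a median of 0.24 for the latter. The medians of V0 and V1 were -0.12 and -0.06. The difference between the hydrolase and V-ATPase medians was 0.20. In every library the summed CPM of hydrolases was taken over that of the pump, and the ratio was 0.216 and 0.243 in APP and 0.188 and 0.184 in WT. Both APP ratios were above both WT ratios. The summed CPM of the hydrolases was 591 and 615 in APP against 514 and 515 in WT, without overlap, and that of the pump, which overlapped, was 2740 and 2538 against 2730 and 2799. No p is given for these sums, as the members were chosen with results of these data known.

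**Figure D4:**
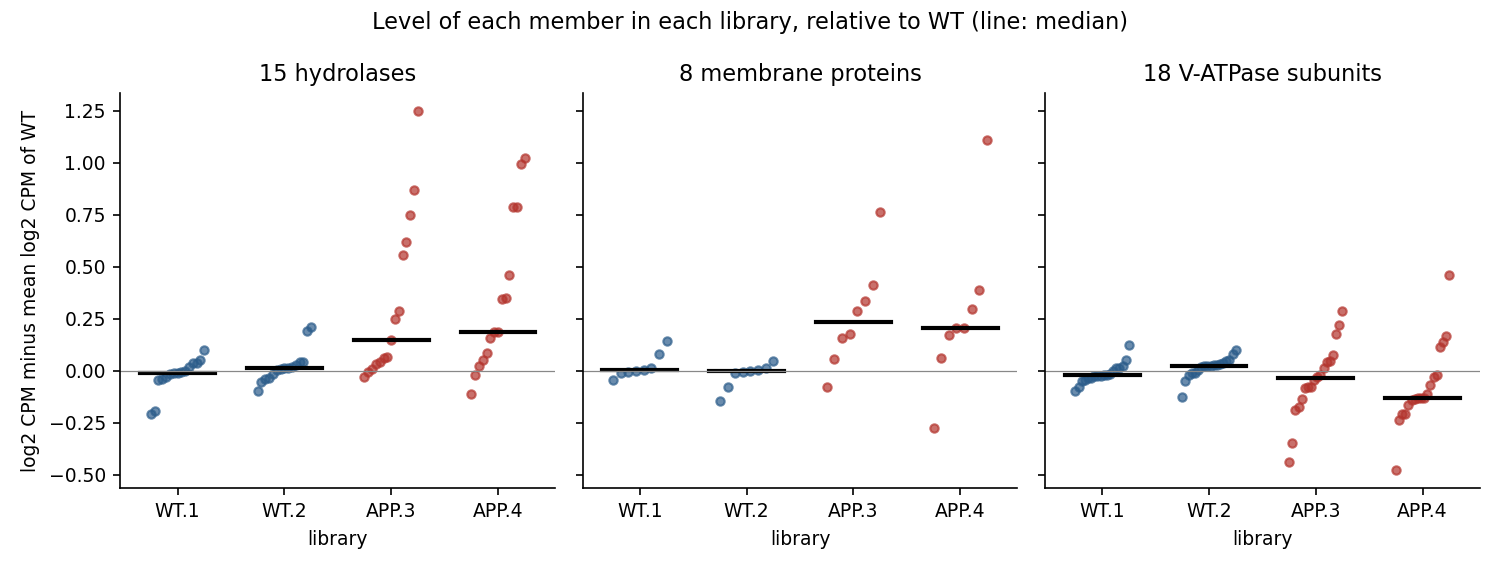
Log2 CPM of each hydrolase, membrane protein and V-ATPase subunit (points) in each library, minus the mean log2 CPM of the 2 WT libraries for that gene, with the median of each library as a line. The hydrolase medians are 0.15 and 0.19 in APP.3 and APP.4, the membrane medians 0.23 and 0.21, and the V-ATPase medians -0.04 and -0.13.

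The pump result depended on the library left out. With APP.3 left out, so that APP.4 was assumed to vary like the WT pair, 5 subunits were called, Atp6v0e higher and Atp6v0c, Atp6v0d1, Atp6v0e2 and Atp6v1b2 lower, while the share of all features called grew to 9.28%. With APP.4 left out, 1 was called, Atp6v0a1, lower, against 6.60% of all features. The hydrolases called numbered 6 without APP.3 and 5 without APP.4, in place of 3, and the membrane proteins 3 in either case. Hydrolases called by the likelihood ratio and exact tests numbered 5, with Lgmn and Naglu added, and these tests also called Lamp2, while they called 3.26% and 3.03% of all features.

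Lysosomal genes outside the members were read from lists of the same kind. Of 37 other enzymes and activators, 34 were counted, and 2 (5.88%) were called, both higher, against 1.14% of all features. The median log2 fold change of the list was 0.21. Rnaset2b, an acid ribonuclease, was at 19.6 and 20.9 CPM in APP and 14.1 and 13.7 CPM in WT (log2 fold change 0.55, SE 0.09, adjusted p = 0.0305), and since its close copy Rnaset2a was also counted, reads may be split between them. Its adjusted p was 0.117 without WT.1 and 0.191 without WT.2.

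Of 40 other lysosomal membrane proteins 37 were counted and 3 (8.11%) were called higher, against 1.14% of all features called, with a median of 0.03. Cd68, a glycoprotein of phagocytes, was at 5.79 and 7.14 CPM in APP and 1.66 and 1.64 CPM in WT (log2 fold change 1.97, SE 0.19, adjusted p = 0.00218). Slc15a3, a peptide and histidine transporter of the endolysosome, was at 2.48 and 2.74 CPM against 0.455 and 0.536 CPM (log2 fold change 2.40, SE 0.28, adjusted p = 0.00655). The third was the tetraspanin Cd63 (0.87, adjusted p = 0.0139), named after its value was seen. The list of 16 V-ATPase accessory and assembly genes, which also holds the a3 subunit Tcirg1, had 0 called and a median of -0.05. The 22 counted genes of lysosome biogenesis and enzyme sorting also had 0 called, with a median of -0.0003. At an unadjusted p under 0.05 the accessory list held 1 higher and 1 lower and the biogenesis list 2 lower. Over all features these shares were 7.36% higher and 4.78% lower, so the counts do not set either list apart.

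**Figure D5:**
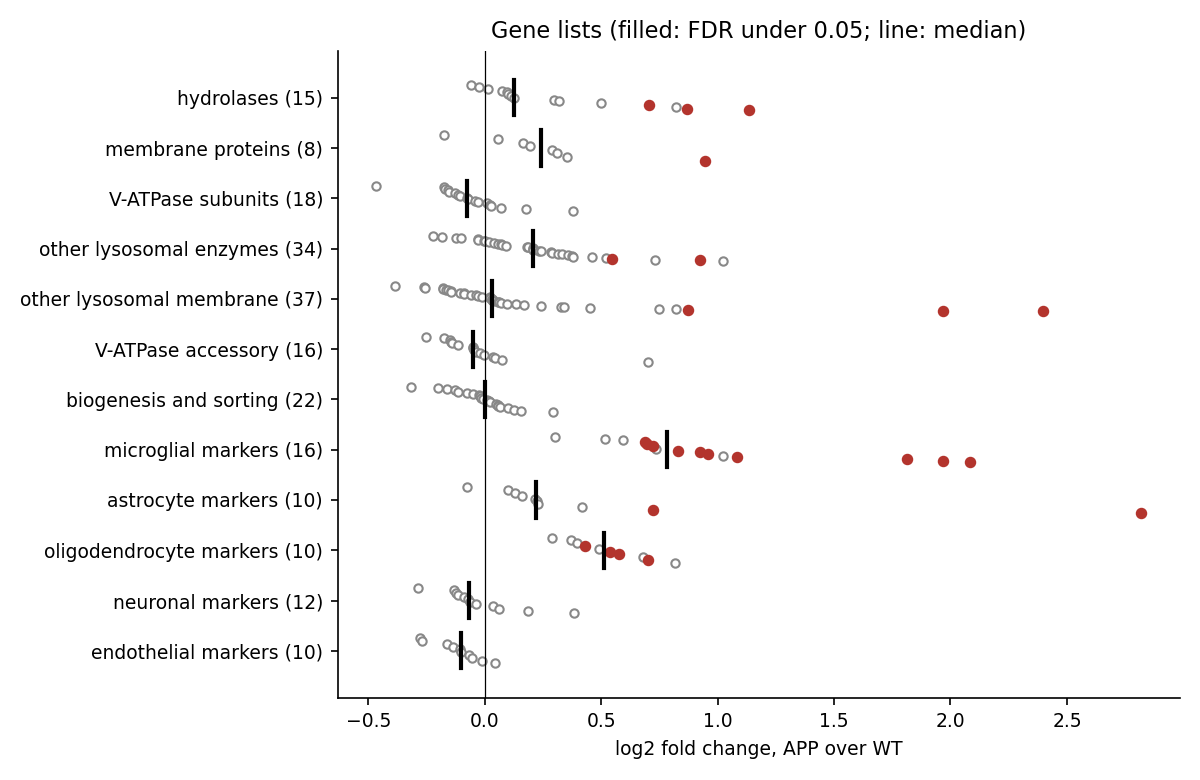
Log2 fold change of APP over WT (x axis) for 3 groups of members, 4 other lysosomal lists and 5 lists of cell type markers, with the number of genes in brackets, filled points for an FDR under 0.05 and a line for the median of each list. The microglial median is 0.78, against 0.13 for the hydrolases and -0.08 for the V-ATPase subunits.

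Markers of glia were also higher in the APP libraries. All 16 microglial markers had log2 fold changes above 0, with a median of 0.78, and none was at 0 counts in WT. Of the 16, 10 (62.5%) were called, against 1.14% of all features. The summed CPM of the microglial markers was 510 and 605 in APP and 306 and 307 in WT. APP.4 was above APP.3 in this sum and in the summed astrocyte markers, but not in the summed oligodendrocyte markers. The microglial list shares 2 genes with the other lysosomal lists, Cd68 among them. Oligodendrocyte markers had 4 of 10 called, all 10 above 0 and a median of 0.51 (summed CPM 2012 and 1745 against 1297 and 1441), and astrocyte markers 2 of 10 called and a median of 0.22 (4918 and 5355 against 4417 and 4043). Neuronal and endothelial markers had medians of -0.07 and -0.10. Of these 12 and 10 genes 0 were called, which at the share of all features is not unusual. Their summed CPM was 7516 and 6970 against 7323 and 7250, and 91.2 and 88.2 against 101 and 89.0.

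As a percentage of the summed microglial markers of the same library, 3 of the 6 called members were lower in APP. Hexa was 7.90% and 7.51% in APP against 8.84% and 8.35% in WT, Npc2 was 7.52% and 7.62% against 9.25% and 9.10%, and Grn was 4.26% and 4.56% against 4.78% and 5.11%. Gusb and Man2b1 overlapped between the groups, at 2.94% and 2.13% against 2.15% and 1.99%, and at 8.27% and 8.29% against 8.83% and 7.66%. Laptm5 was higher by a small amount, 2.67% and 2.87% against 2.66% and 2.60%. The part of these cell types in the difference of the lysosomal genes was not tested.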

How the data were processed

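Cortical RNA of 2 APP and 2 WT mice, depleted of ribosomal RNA, was sequenced as strand-specific paired reads. The authors aligned the reads with FANSe2 to Ensembl mouse RNA and deposited unnormalized read counts for 37539 transcripts. The deposited log2 fold change and log2 CPM, and the deposited p-value and FDR, are the authors' own edgeR comparison and were not used, nor were 4 further columns of values per library. The submitters' notes name a human build. No coordinate was taken from it.

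Symbols in the deposited table vary in case and are blank for 22.0% of transcripts. Transcripts were therefore assigned by identifier to GENCODE M21 genes (GRCm38), which covered 98.2%, and added up within each gene, while the other 681 entered the test singly. By identifier the members had 99 transcripts, and by deposited symbol 90 ignoring case and 17 with exact case. The WT columns were matched to samples by number and the APP columns, numbered differently, only to their group.

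Counts were tested in R 4.3.3 with edgeR 4.0.16 (quasi-likelihood, TMM, no covariate), and DESeq2 1.42.0 served as an alternative. The SE is the fold change over the root of the test's F. The level per kilobase sums CPM over transcript length across a gene's transcripts. Intervals are at 95% for the fitted change. The script was tested on simulated data. Sequences were compared with blastn 2.17.0 at 90% identity over at least 100 bases. Reads carry no molecular identifiers. The p-values set the difference between the groups against a spread that draws on these 4 animals and is shared across genes.

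The members and lists were chosen with earlier results of these data known. Full values were given for members past the FDR, the member of largest change of each role, Tfeb, the most abundant per kilobase of each role, and in other lysosomal lists the 2 of smallest p among those called. A gene of this rule is not reported here. Other values were named after they were seen. The alternatives were other tests, other scalings, a minimum of 10 counts in every library, transcripts in place of genes and leaving out each library.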

Additional observations from a re-analysis of the deposited data

How the results depend on the processing

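The number of called members stayed at 6, the same 6 genes, with library totals, TMM over protein-coding genes, DESeq2 size factors, at least 10 counts in every library and edgeR's newer quasi-likelihood method. It was 9 with the likelihood ratio and exact tests and 8 with DESeq2, each including those 6. The share of all features called rose from 1.14% to 3.26%, 3.03% and 1.84% in these tests. The number was 7 with sums by deposited symbol, where 1.85% of features were called. It was also 7 with transcripts in place of genes, where 398 of 37539 transcripts were called. The newer method and the sums by symbol were chosen after seeing the data. With the likelihood ratio and exact tests the hydrolases called were 5 and the membrane proteins 2, and with DESeq2 the membrane proteins were also 2.

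Leaving out each library in turn gave 5 to 16 called members, 5 to 7 with the 1.5-fold cut-off, 3 to 6 hydrolases, 1 to 3 membrane proteins and 0 to 5 V-ATPase subunits. All features called ranged from 135 (without WT.2) to 1707 (without APP.3). The median log2 fold change then ranged from 0.15 to 0.19 for hydrolases, from 0.20 to 0.24 for membrane proteins and from -0.13 to -0.035 for the V-ATPase, and the difference of hydrolases and V-ATPase from 0.18 to 0.32. Gusb, Hexa, Man2b1 and Laptm5 were called in each of these fits.

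Signs turned only in members that were near 0 and not called with all 4 libraries, and only when a library was left out. Over these fits the log2 fold change ranged from -0.028 to 0.16 in Atp6v0a2, from -0.033 to 0.051 in Atp6v0b, from -0.13 to 0.044 in Atp6v1a, from -0.17 to 0.015 in Atp6v1b2, from -0.14 to 0.078 in Atp6v1c1, from -0.076 to 0.12 in Atp6v1f, from -0.14 to 0.18 in Atp6v1h, from -0.054 to 0.0072 in Glb1, from -0.0021 to 0.036 in Manba and from -0.035 to 0.012 in Psap. The cause was not tested.

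No paired analysis was possible because the count columns of APP carry other numbers than the labels of the APP samples, so that the numbers the labels share between groups could not be tied to columns. The depth limits what can be said of Tfeb, Atp6v0a4 and Atp6v1c2, which had fewer than 100 counts in each library.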

Other observations

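Some V-ATPase subunits were counted as more than 1 isoform. After the values had been seen, the balance within 4 pairs was read per kilobase of transcript. The ratio of the widely expressed Atp6v1g1 to the neuronal Atp6v1g2 was 1.21 and 1.11 in APP and 0.884 and 0.964 in WT. In CPM, without division by length, Atp6v1g2 was the higher in every library. It was at 70.3 and 72.3 CPM against 63.8 and 60.4 for Atp6v1g1 in APP, and at 78.4 and 80.2 against 51.9 and 58.1 in WT. A stretch of 357 bases of Atp6v1g1 is 99.4% identical to Gm13453, which was not counted. The ratio of Atp6v0e to the neuronal Atp6v0e2 was 0.198 and 0.230 against 0.148 and 0.153, and that of Atp6v0a2 to the neuronal Atp6v0a1 was 0.0789 and 0.0824 against 0.0697 and 0.0728. In these 3 pairs both APP ratios were above both WT ratios. The ratio of Atp6v1c2 to Atp6v1c1 was lower, 0.00604 and 0.00684 against 0.00965 and 0.00771, on few reads of Atp6v1c2. The ratios were not tested.

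Tcirg1, the a3 form of the proton-channel subunit and known from osteoclasts and phagocytes, had the highest log2 fold change of the V-ATPase accessory list, 0.70 (SE 0.14), at 8.13 and 8.39 CPM in APP and 5.35 and 4.80 CPM in WT. Its adjusted p was 0.0593 with edgeR's quasi-likelihood test and over the alternatives ranged from 0.00329 with the likelihood ratio test to 0.363 without WT.2. It too was named after its value was seen.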
